A study of Mus musculus with 12 samples.

Results

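The genes described here are the receptors for the Fc part of antibodies, their signalling adaptors and the kinases that act on them. Of 9 genes named (Fcgr1, Fcgr2b, Fcgr3, Fcgr4, Fcer1g, Tyrobp, Syk, Fgr and Lyn), 8 were measured, among 20711 genes with a value on the arrays. They were chosen by name, with earlier results of these data known. Each was read from the exon-level probe sets that named it and no other gene, 93 in all. No probe set in the table used here named Lyn alone, and it was not analysed here.

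Cells were grown from bone marrow of female mice of strain C57B/6, 12 weeks old and treated with 5-FU (5-fluorouracil), which depletes dividing marrow cells. The cells were kept in DMEM with foetal calf serum and the cytokines IL3, SCF and IL6. All 3 groups carried a retroviral (MSCV) vector with Hoxa9, a homeobox gene that drives growth of myeloid progenitors, so no group was free of it. HOXA9+MIY had an empty second vector, HOXA9+MEIS1 had Meis1, a DNA-binding partner of Hoxa9, and HOXA9+MDHD had Meis1 with its homeodomain, the DNA-binding part, deleted. Each group had 4 arrays, 2 from week 3 and 2 from week 4 of culture. The submitters describe 4 independent experiments per group, and it is not stated whether arrays of different weeks share a culture. The cells were a transduced culture driven by viral vectors, not sorted by type.

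Fc gamma receptors bind IgG on the surface of macrophages, neutrophils and other myeloid cells. The activating ones (Fcgr1, Fcgr3, Fcgr4) signal through the gamma chain Fcer1g, whose cytoplasmic tail holds an ITAM, a pair of tyrosines in a set spacing. Src-family kinases such as Fgr and Lyn phosphorylate those tyrosines, and Syk then docks there and passes the signal on. Tyrobp (DAP12) is a second ITAM adaptor that serves other receptors of myeloid and NK cells. Fcgr2b carries an inhibitory motif instead and damps the signal.

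With full-length Meis1 present, 5 of the 8 genes were lower than with the empty vector and 0 were higher. They were Fcgr4, Fgr, Fcgr1, Tyrobp and Fcgr2b, with falls from 1.32-fold to 2.83-fold. For Fcgr3, Fcer1g and Syk the differences were small and not called. Over all genes, 5.52% were called lower and 5.25% higher in that comparison. The median log2 difference was -0.50 over the 8 genes and -0.005 over all genes. A gene was called at an adjusted p under 0.05 over all genes in limma, and every p below is of that kind unless stated. Values are log2 gene values after array normalization, so a difference of 1 is 2-fold, and levels of different genes cannot be set against each other.

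**Figure D1:**
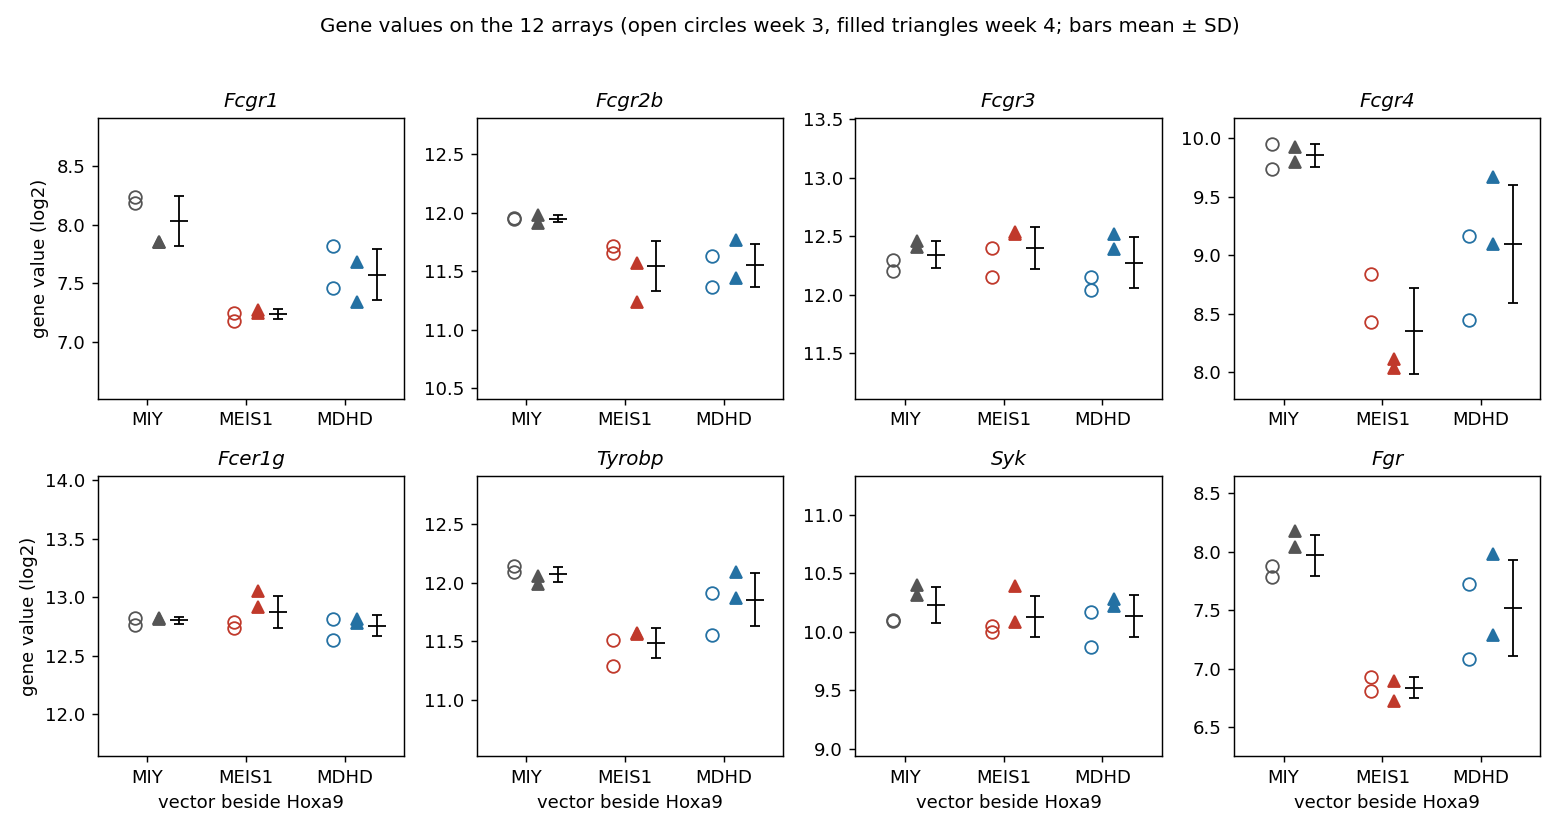
Gene values (log2) of the 8 genes on the 12 arrays, by the vector added to Hoxa9; open circles are week 3, filled triangles week 4, and bars give the mean ± SD of 4 arrays. The MEIS1 arrays lie below all MIY arrays for Fcgr1, Fcgr2b, Fcgr4, Tyrobp and Fgr, and the groups overlap for Fcgr3, Fcer1g and Syk; every panel spans the same number of log2 units.

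Fcgr4, an activating IgG receptor of mouse monocytes, macrophages and neutrophils, had the largest difference. In HOXA9+MIY Fcgr4 stood at 9.95 and 9.74 in week 3 and at 9.93 and 9.80 in week 4. In HOXA9+MEIS1 it stood at 8.84 and 8.43 in week 3 and at 8.04 and 8.11 in week 4. All 4 arrays with Meis1 were below all 4 with the empty vector, and the means differed by -1.50 ± 0.23 (SE), or 2.83-fold (adjusted p = 0.000929). In HOXA9+MDHD the values were 9.17 and 8.45 in week 3 and 9.10 and 9.67 in week 4. These 4 arrays were spread widely, with 9.67 in week 4 replicate 2 close to the empty-vector arrays and 8.45 within the range of HOXA9+MEIS1. The difference from HOXA9+MIY was -0.76 (adjusted p = 0.132) and that of HOXA9+MEIS1 from HOXA9+MDHD was -0.74 (adjusted p = 0.101), and neither was called. The latter was called without HOXA9+MEIS1 week 3 replicate 1 (adjusted p = 0.0473) or HOXA9+MDHD week 3 replicate 2 (-0.99, adjusted p = 0.0112). The order of means was HOXA9+MIY, HOXA9+MDHD, HOXA9+MEIS1, with neighbours in it not separated by the test.

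Fcgr1, the high-affinity IgG receptor of monocytes and macrophages, was the one gene of the 8 that was called lower with both forms of Meis1. In HOXA9+MIY it stood at 8.24 and 8.19 in week 3 and at 7.85 in both arrays of week 4. In HOXA9+MEIS1 the 4 arrays lay close together, at 7.25 and 7.18 in week 3 and 7.27 and 7.25 in week 4. The groups did not overlap, and the mean with Meis1 differed by -0.80 ± 0.10 (1.74-fold lower, adjusted p = 0.000321). In HOXA9+MDHD it stood at 7.46 and 7.82 in week 3 and 7.34 and 7.68 in week 4, all below every empty-vector array and above every array with Meis1. The difference from HOXA9+MIY was -0.46 ± 0.10 (adjusted p = 0.0459), and that of HOXA9+MEIS1 from HOXA9+MDHD was -0.34 (adjusted p = 0.103). The call with the deleted form stood only when HOXA9+MDHD week 3 replicate 2 or week 4 replicate 2 was left out, and was lost without any other of the 12 arrays (adjusted p up to 0.162).

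Fcgr3, the low-affinity activating receptor that most myeloid cells carry, did not follow Fcgr1 and Fcgr4. It stood at 12.30 and 12.20 in week 3 and 12.46 and 12.41 in week 4 of HOXA9+MIY. With Meis1 it stood at 12.40 and 12.15 in week 3 and 12.54 and 12.52 in week 4. With the deleted form it stood at 12.15 and 12.04 in week 3 and 12.39 and 12.52 in week 4. Over both weeks the 3 groups overlapped. The difference of HOXA9+MEIS1 from HOXA9+MIY was 0.06, with a 95% interval from -0.07 to 0.19 (adjusted p = 0.632). Week 4 was higher than week 3 by 0.27 ± 0.05 across the groups (adjusted p = 0.000596).

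Fcgr2b, the inhibitory IgG receptor, stood at 11.95 and 11.96 in week 3 and 11.98 and 11.91 in week 4 of HOXA9+MIY, the tightest set of the 3 groups. With Meis1 it stood at 11.72 and 11.66 in week 3 and 11.24 and 11.57 in week 4, and with the deleted form at 11.63 and 11.37 in week 3 and 11.44 and 11.77 in week 4. All 8 arrays with either form of Meis1 were below the 4 arrays without. The differences were alike in size, -0.40 ± 0.10 with Meis1 (adjusted p = 0.0243) and -0.40 ± 0.10 with the deleted form (adjusted p = 0.0787), and only the former was called; the latter was called without HOXA9+MEIS1 week 4 replicate 1 (adjusted p = 0.0342) or without HOXA9+MDHD week 4 replicate 2. The forms differed from each other by -0.004, with an interval from -0.23 to 0.22. The call with Meis1 was lost without any 1 of the 4 HOXA9+MIY arrays and without HOXA9+MEIS1 week 4 replicate 1 (adjusted p 0.0535 to 0.0761, and -0.30 without the latter array).

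The Fcgr2b, Fcgr3, Fcgr4 and Fcer1g genes lie close together on chromosome 1 (RefSeq, GRCm38.p6) and Fcgr1 lies on chromosome 3. Fcgr2b spans chr1:170960558-170976071, Fcgr4 chr1:171018926-171029761, Fcgr3 chr1:171051169-171065915 and Fcer1g chr1:171229572-171234349. Of these neighbours, Fcgr2b and Fcgr4 fell with Meis1 and Fcgr3 and Fcer1g were not called. The 150 bases before the start sites of the 4 receptor genes are shown because these related genes differed in their values with Meis1. Capitals mark matches to GAGGAA, a site of the kind the myeloid factor PU.1 binds, or to TGACAG, the core Meis1 site, both searched on both strands. All matches in these windows are on the strand opposite the gene, and so read TTCCTC and CTGTCA.

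Fcgr1 (chr3:96293970-96294119, minus strand): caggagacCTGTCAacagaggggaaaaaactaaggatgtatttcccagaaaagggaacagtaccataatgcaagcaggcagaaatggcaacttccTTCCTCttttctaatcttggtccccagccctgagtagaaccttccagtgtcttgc
Fcgr4 (chr1:171018776-171018925, plus strand): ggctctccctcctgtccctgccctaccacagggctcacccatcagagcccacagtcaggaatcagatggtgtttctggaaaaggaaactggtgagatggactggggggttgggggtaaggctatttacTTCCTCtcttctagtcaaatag
Fcgr3 (chr1:171059404-171059553, minus strand): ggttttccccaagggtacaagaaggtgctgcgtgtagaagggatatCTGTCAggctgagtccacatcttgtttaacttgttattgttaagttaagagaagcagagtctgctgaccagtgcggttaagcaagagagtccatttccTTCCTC
Fcgr2b (chr1:170976072-170976221, minus strand): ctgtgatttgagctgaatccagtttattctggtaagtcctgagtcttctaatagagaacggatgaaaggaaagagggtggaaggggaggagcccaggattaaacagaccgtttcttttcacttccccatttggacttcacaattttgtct

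The Fcgr3 window precedes the more upstream of 2 start sites in the RefSeq promoter table, which lies within the span of the gene. GAGGAA stood 55 to 50 bases before the start of Fcgr1, 22 to 17 before that of Fcgr4 and 6 to 1 before that of Fcgr3, and also 9 to 4 before 1 start of Syk, which was not called. TGACAG stood 142 to 137 bases before the start of Fcgr1 and 104 to 99 before that of Fcgr3. Over the 250 bases searched before each start, 23.3% of 32851 RefSeq promoters held GAGGAA and 15.9% held TGACAG. TGATTTAT, a joint site of Hox and TALE factors held by 0.837% of promoters, matched in none of the 7 members with a promoter in the table. Both motifs are short and common. Fcgr1 and Fcgr3 each held both, and the part of these motifs in the differences was not tested. A match is a run of letters, and binding was not measured.

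Of the adaptor genes, Tyrobp fell with Meis1 and Fcer1g was not called. Tyrobp stood at 12.09 and 12.14 in week 3 and 12.06 and 11.99 in week 4 of HOXA9+MIY, and at 11.51 and 11.29 in week 3 and 11.56 and 11.57 in week 4 of HOXA9+MEIS1. With the deleted form it stood at 11.91 and 11.55 in week 3 and 11.87 and 12.09 in week 4. The arrays with Meis1 were lowest, and only 11.55 among the arrays of the deleted form reached their range. The difference of HOXA9+MEIS1 was -0.59 ± 0.09 from the empty vector (adjusted p = 0.00109) and -0.37 ± 0.09 from the deleted form (adjusted p = 0.039). The deleted form was not separated from the empty vector (-0.22, adjusted p = 0.318). The call between the forms of Meis1 stood only without HOXA9+MIY replicate 2 of either week or without HOXA9+MDHD week 3 replicate 2, and was lost without any other array (adjusted p up to 0.12).

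Fcer1g, the adaptor that the activating Fc receptors themselves need at the surface, stood at 12.82 and 12.76 in week 3 and 12.81 and 12.82 in week 4 of HOXA9+MIY. With Meis1 it stood at 12.79 and 12.74, then 12.92 and 13.05, and with the deleted form at 12.81 and 12.63, then 12.78 and 12.81. The groups overlapped, with both week 4 arrays with Meis1 above the others. The difference of HOXA9+MEIS1 from HOXA9+MIY was 0.07, with an interval from -0.04 to 0.18 (adjusted p = 0.469). That of HOXA9+MDHD was -0.04, with an interval from -0.15 to 0.06 (adjusted p = 0.776). These intervals leave out a fall of the size seen for Tyrobp.

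Fgr, a Src-family kinase of mature myeloid cells, fell by 1.13 ± 0.16 with Meis1, or 2.19-fold (adjusted p = 0.000533). It stood at 7.78 and 7.88 in week 3 and 8.18 and 8.04 in week 4 of HOXA9+MIY, and at 6.81 and 6.93, then 6.72 and 6.89, in HOXA9+MEIS1. In HOXA9+MDHD it stood at 7.08 and 7.72 in week 3 and 7.29 and 7.98 in week 4. The groups with the empty vector and with Meis1 did not overlap, and replicate 2 of the deleted form lay near the empty-vector arrays in each week. Between the forms of Meis1 the difference was -0.68 ± 0.16 (adjusted p = 0.0301), with no overlap of the arrays. That call was lost without HOXA9+MEIS1 week 3 replicate 1, either HOXA9+MEIS1 array of week 4, or replicate 2 of HOXA9+MDHD in either week (adjusted p up to 0.0975). The deleted form was not separated from the empty vector (-0.45, adjusted p = 0.208). Some probe sets of Fgr had a mean in HOXA9+MEIS1 below 6.2592, the level that a mean over all arrays had to pass to be used. The lowest was 5.17, so the size of the fall is less certain.

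Syk, the kinase that binds phosphorylated ITAMs, stood at 10.10 and 10.09 in week 3 and 10.40 and 10.31 in week 4 of HOXA9+MIY. With Meis1 it stood at 10.00 and 10.05, then 10.08 and 10.39, and with the deleted form at 9.87 and 10.17, then 10.28 and 10.22. The conditions overlapped, and the higher values were mostly those of week 4. The difference of HOXA9+MEIS1 from HOXA9+MIY was -0.10, with an interval from -0.26 to 0.07 (adjusted p = 0.547), and that of HOXA9+MDHD was -0.09 (adjusted p = 0.691). Week 4 was higher than week 3 by 0.23 ± 0.06 (adjusted p = 0.00886).

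**Figure D2:**
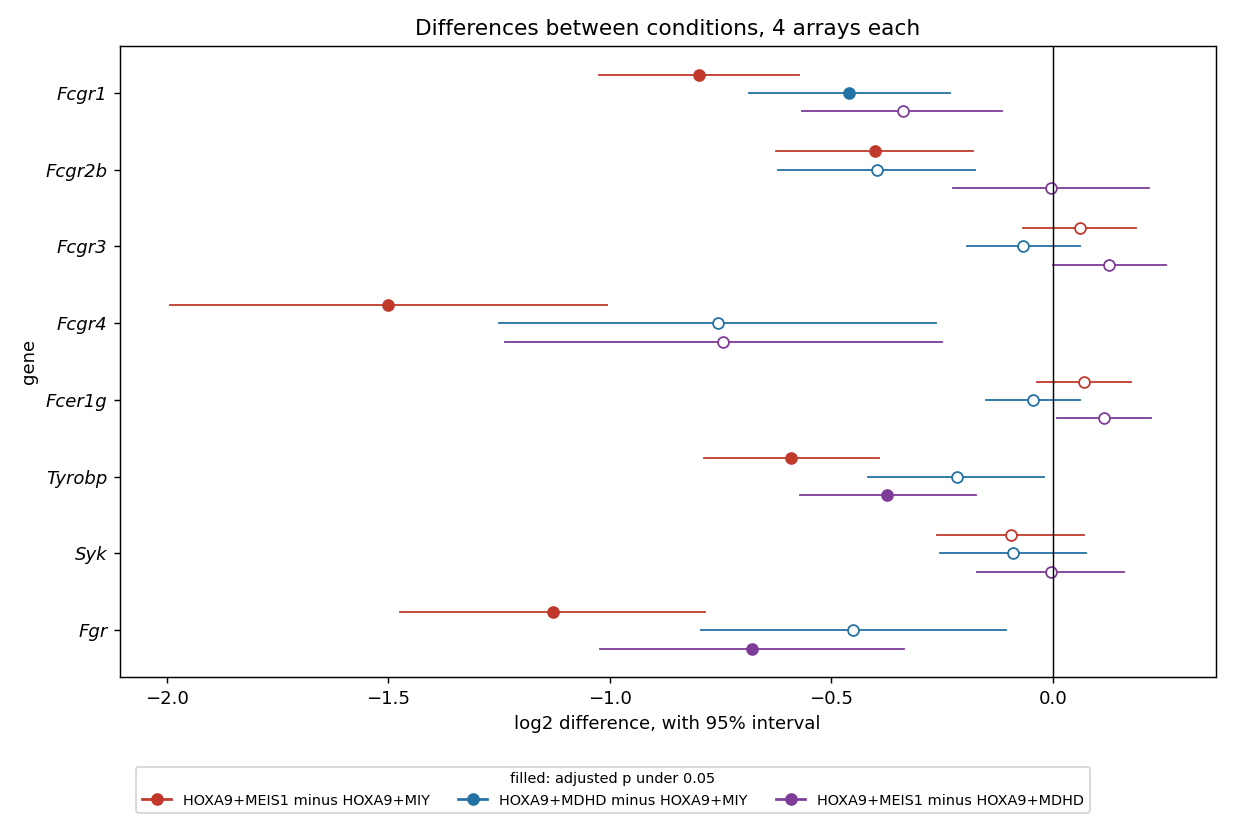
Log2 differences between conditions for the 8 genes (x axis) with limma's 95% intervals, 4 arrays per condition; filled points have an adjusted p under 0.05. Filled points below 0 number 5 for HOXA9+MEIS1 minus HOXA9+MIY, with Fcgr4 at -1.50 and Fgr at -1.13, against 1 for HOXA9+MDHD minus HOXA9+MIY and 2 for HOXA9+MEIS1 minus HOXA9+MDHD.

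What the form of Meis1 that lacks its DNA-binding part does beside Hoxa9 is asked by setting HOXA9+MDHD against HOXA9+MIY. That gave 1 call of 8, Fcgr1, where 1.03% of all genes were called lower and 0.942% higher. The median over the 8 genes was -0.31, against -0.01 over all genes. Without HOXA9+MDHD week 4 replicate 2, whose Fcgr4, Fgr, Tyrobp and Fcgr2b values were the highest of its group, 4 of the 8 genes were called lower. Those were Fcgr1, Fcgr2b (-0.49, adjusted p = 0.00849), Fcgr4 (-0.97, adjusted p = 0.0162) and Fgr (-0.60, adjusted p = 0.0334). Over all genes that step raised the calls, in either direction, from 409 to 987. Leaving out the array with the highest values of a group lowers the mean of that group. The added calls among the 8 genes follow in part from that choice and are not separate support.

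The comparison of HOXA9+MEIS1 with HOXA9+MDHD asks what the homeodomain adds. Fgr and Tyrobp were called lower, 2 of 8, where 2.11% of all genes were called lower and 2.28% higher. The median over the 8 genes was -0.17, against 0.007 over all genes. These comparisons share arrays, so their values for a gene are not independent of each other. None of the 8 was called when these conditions were fitted without the HOXA9+MIY arrays (in limma, adjusted over all genes).

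Between the weeks, Fcgr3 and Syk rose, 2 of 8, where 11.7% of all genes were called higher and 28.1% lower. Anything else that differed between the arrays of the weeks, such as handling, cannot be told apart from time in culture. Of the neutrophil markers, 3 of 8 were called higher in week 4, Cxcr2 by 1.56, Ly6g by 1.32 and Camp by 0.35, and of the monocyte and macrophage markers 1 of 7, Emr1 by 0.43. Of the mast cell and basophil markers, 4 of 7 were called lower, with Fcer1a at -2.04, and the part of these cells in the week differences was not tested. Fcer1g differed by 0.10 (adjusted p = 0.0557) and was not called. Whether the conditions differed by week was tested with an interaction term. Over all 20711 genes, limma called 0 for each of the 3 pairs of conditions, with 1358, 1011 and 1557 genes at an unadjusted p under 0.05. For the 8 genes the lowest adjusted p was 0.616, for Fcgr4 between the forms of Meis1. The difference changed by -1.13 from week 3 to week 4 (unadjusted p = 0.00801), and the unadjusted p was also under 0.05 for 1 gene, Fcgr1, between HOXA9+MEIS1 and HOXA9+MIY (0.41, unadjusted p = 0.0493).

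The same genes were then read at the level of single probe sets, each a short stretch of an exon. Of 93 probe sets, 45 were called lower in HOXA9+MEIS1 than in HOXA9+MIY, where 3.5% of all 318760 named probe sets were. In HOXA9+MDHD against HOXA9+MIY it was 8, where 0.534% of all were, and in HOXA9+MEIS1 against HOXA9+MDHD it was 17, where 1.53% of all were. Of the 93 probe sets, 84 had a mean above 6.2592, the level for entering a gene value, against 233798 of the 318760. The shares over all probe sets thus rest on a larger part of dim ones. Probe sets of a gene share its RNA and are not independent of each other.

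For Tyrobp all 8 probe sets were called lower with Meis1, within a narrow range from -0.85 to -0.43. For Fgr 14 of 17 were called, from -2.66 to -0.69, and all 17 were below 0. For Fcgr4 5 of 6 were called, from -1.67 to -0.84, and all 6 were below 0. Fcgr2b had 8 of 13 called and a median of -0.39. For Syk 0 of 18 were called (-0.25 to 0.04) and for Fcer1g 0 of 6 (0.03 to 0.06). Of the 10 of Fcgr3, 1 was called. That one, dim at a mean of 6.92 in HOXA9+MIY and 5.52 in HOXA9+MEIS1, differed by -1.40 with Meis1 (adjusted p = 0.00835) and higher by 1.97 in week 4 (adjusted p = 1.82e-05).

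Fcgr1 was uneven, and its gene value is smaller than that of several of its probe sets. Of 15 probe sets, 9 were called lower with Meis1, from -3.19 to -0.48, the highest of the others was 0.18, and the median of all 15 was -0.75. The largest fall was in a probe set that went from a mean of 6.93 in HOXA9+MIY to 3.74 in HOXA9+MEIS1, with 4.89 in HOXA9+MDHD. The next was 7.28, 4.55 and 5.97 in the same order. Both lay, averaged over the 12 arrays, below 6.2592, the level a probe set had to pass to enter the gene value, and 9 of the 15 passed it. Among those that passed, a probe set at 8.49 in HOXA9+MIY stood at 6.51 in HOXA9+MEIS1, a difference of -1.98 (adjusted p = 8.5e-06).

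**Figure D3:**
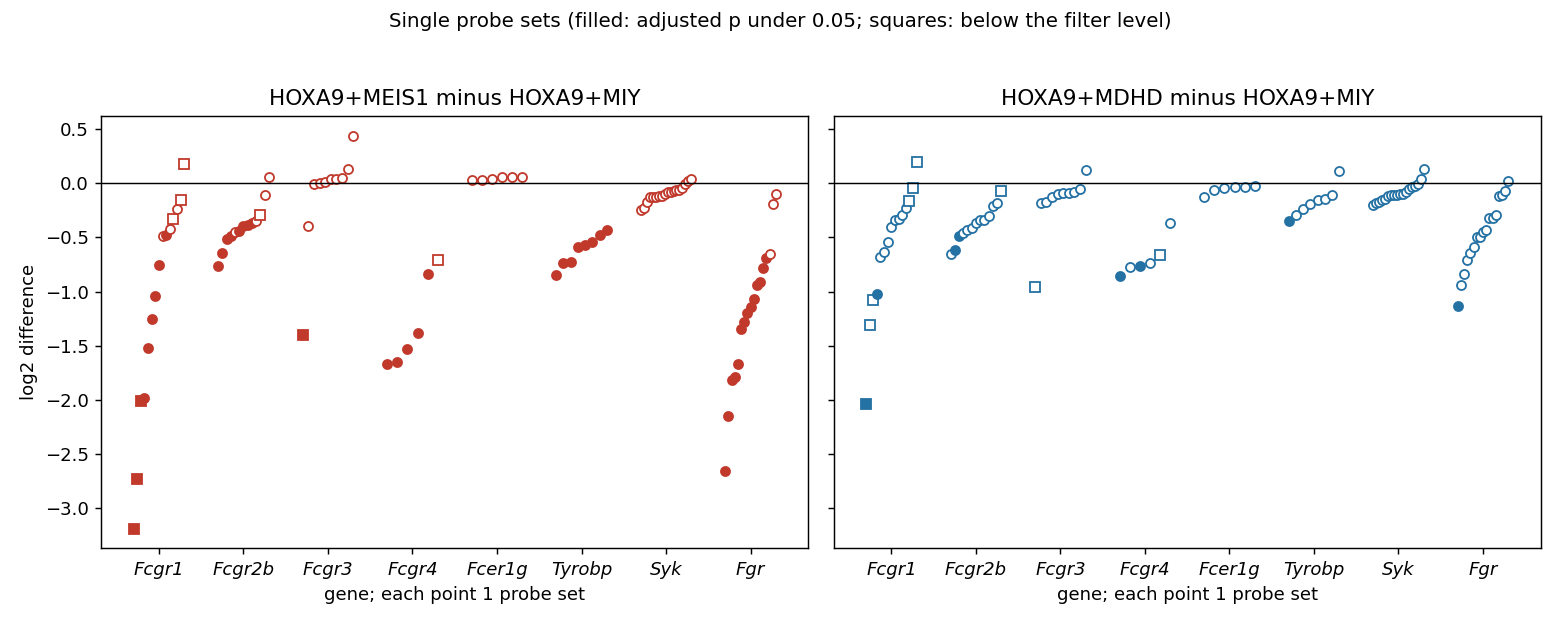
Log2 difference (y axis) of each single probe set of the 8 genes, for HOXA9+MEIS1 minus HOXA9+MIY (left) and HOXA9+MDHD minus HOXA9+MIY (right); filled symbols have an adjusted p under 0.05 and squares lie below the filter level. On the left all 8 of Tyrobp, 14 of 17 of Fgr and 5 of 6 of Fcgr4 are filled below 0, while those of Fcer1g and Syk lie near 0.

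Between the weeks 23 of the 93 probe sets were called higher, where 7.46% of all were. They came mainly from Fcgr3 (9 of 10) and Syk (11 of 18), the genes called as a whole. Fcgr2b and Fcgr3 are near-identical over part of their length, and 4 probe sets that name both were left out. Those 4 differed between HOXA9+MEIS1 and HOXA9+MIY by -0.38 to -0.01.

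Because each array measures all genes at once, pairs of partners were also compared within arrays, as a description chosen after the values were seen. Tyrobp minus Fcer1g was -0.73 ± 0.09 (SD, n = 4) with the empty vector, -1.39 ± 0.09 with Meis1 and -0.91 ± 0.15 with the deleted form. The size of such a gap depends on the probes, so only its shift between groups is read here, and the adaptor pair shifted by -0.66 with Meis1 and -0.17 with the deleted form. Fcgr4 minus Fcgr3 shifted by -1.56 with Meis1 and -0.69 with the deleted form. Fgr minus Syk shifted by -1.03 and -0.36. The inhibitory receptor against the activating one, Fcgr2b minus Fcgr3, shifted by -0.46 and -0.33. Both groups are set against the same HOXA9+MIY arrays, and these shifts were not tested.

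Over the 12 arrays, Fcgr4 correlated with Tyrobp at a Pearson r of 0.89, Fcgr1 with Fgr at 0.84 and Fcgr2b with Fcgr4 at 0.84. Fcgr3 correlated with Fcer1g at 0.74, and with Fcgr1 at -0.24. These are descriptions over arrays that share conditions and weeks. Among all genes, those most like Fcgr4 were Hsd11b1 (r = 0.976), Abca13 (0.973) and Mreg (0.97). Those most like Fcgr1 were Gpr183 (0.971), the lectin receptor Clec7a (0.969) and the matrix protease Mmp2 (0.964). Fgr was nearest to Cacnb2 (0.971), Myof (0.971) and Slc11a1 (0.965), a metal transporter of phagosomes. Tyrobp was nearest to Sepp1 (0.961), Klk1b11 (0.955) and Gpx3 (0.955), the first and last of which make selenoproteins. Fcgr2b was nearest to Trem3 (0.953), itself a receptor that signals through an ITAM adaptor, Ccdc125 (0.946) and Dgat2 (0.945). The genes most like Fcgr3 (Sbsn, 0.969, Olfr1188, 0.964, and Bsg, 0.959) differed between HOXA9+MEIS1 and HOXA9+MIY by 0.05 to 0.26.

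The labelled tissue, a marrow culture, was checked against markers. The mean of the haematopoietic markers lay between 11.73 and 11.96 on all arrays. The means of the NK and T, B and dendritic lists lay between 6.87 and 7.47. Single genes of those lists stood higher, such as Klrb1c at 8.78 and Ccr7 at 8.26 in HOXA9+MIY. Levels of different genes are not comparable, so this is a rough check. In a bulk sample, fewer cells of a type and less RNA per cell cannot be told apart, and several markers moved with the genes described here. The mean of the monocyte and macrophage markers (7 of 8 measured) was 9.89 to 10.05 with the empty vector, 8.49 to 8.68 with Meis1 and 9.28 to 9.75 with the deleted form. Of those 7, 5 were called lower with Meis1 and 1 higher, where 5.52% of all genes were called lower and 5.25% higher. Csf1r, the macrophage growth factor receptor, was at -2.99, the lysosomal protease Ctss at -3.46 and the macrophage surface antigen Emr1 at 1.06. With the deleted form 4 of the 7 were called lower and 1 higher, where 1.03% of all genes were called lower and 0.942% higher. There Csf1r was at -0.91, Ctss at -1.08 and Emr1 at 0.60. The mean of the 8 neutrophil markers was 10.01 to 10.96, 7.92 to 8.38 and 8.28 to 10.60 in the same order of groups. Of the 8, 7 were called lower with Meis1 and 2 with the deleted form. The mean of the 5 progenitor markers was 9.19 to 9.40, 10.35 to 10.69 and 9.67 to 10.09. Of these, 3 were called higher with Meis1, Flt3 by 3.16, Cd34 by 1.24 and Gata2 by 1.02, while Kit (0.36, adjusted p = 0.186) and Myb (0.12, adjusted p = 0.175) were not, and 1 was called higher with the deleted form, Cd34. The part of cell makeup in the differences of the Fc receptor and kinase genes was not tested. Mast cell and basophil markers, which include users of Fcer1g, ranged from 7.91 to 9.47 and 0 of 7 were called in limma between HOXA9+MEIS1 and HOXA9+MIY.

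Other genes of the pathway were read from lists chosen with earlier results of these data known. Of the 12 other Fc receptors, limma called 0 with Meis1 against the empty vector and 0 with the deleted form, with 3 and 2 at an unadjusted p under 0.05. The chains of the IgE receptor had differences of -0.65 for Fcer1a (adjusted p = 0.483) and -0.37 for Ms4a2 (adjusted p = 0.127) with Meis1. The largest differences with the deleted form were 1.01 for Fcer1a (adjusted p = 0.367) and -0.35 for Fcgrt (adjusted p = 0.0999), and the 1 of 12 called without HOXA9+MIY week 4 replicate 1 was Fcgrt. Fcgrt, the neonatal Fc receptor that recycles IgG, was higher with Meis1 than with the deleted form by 0.60 ± 0.10 (adjusted p = 0.00378). That was the 1 call of 12 in that pair, where 2.28% of all genes were higher and 2.11% lower. The means of Fcgrt were 8.94 with the empty vector, 9.18 with Meis1 and 8.58 with the deleted form, and neither form was called against the empty vector. The median over the list with Meis1 against the empty vector was -0.10, against -0.005 over all genes. Leaving out HOXA9+MEIS1 week 3 replicate 2 or HOXA9+MDHD week 4 replicate 1 gave 1 call of the 12, lower with Meis1.

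A further list held receptors that couple to Tyrobp, Fcer1g or another ITAM chain, with some such chains themselves. It also held the adaptor Hcst (DAP10) with its receptor Klrk1. Of 23 measured (of 25 listed), 10 were lower and 0 higher with Meis1 against the empty vector. Over all genes 5.52% were lower and 5.25% higher, and the list's median was -0.48 against -0.005 over all genes. The B cell receptor chain Cd79b, itself an ITAM chain, was 1 of the 10. Clec4n (Dectin-2), a fungal lectin receptor that uses Fcer1g, fell by 2.96 ± 0.36 (adjusted p = 0.000204), from a mean of 8.89 to 5.93, a level below the filter. Clec7a (Dectin-1), a beta-glucan receptor whose own tail holds a single-tyrosine form of the motif, fell by 2.04 ± 0.21 (adjusted p = 5.6e-05). Trem2, a lipid-sensing partner of Tyrobp, fell by 1.71 ± 0.20 (adjusted p = 0.00016), and Clec5a, another Tyrobp partner, fell by 1.28 ± 0.18 (adjusted p = 0.000513). The C-type lectin receptors Clec4e and Clec4d, chosen here after their values were seen, were not called (0.21, adjusted p = 0.27, and 0.14, adjusted p = 0.604).

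With the deleted form against the empty vector, 3 of those 23 were called lower and 0 higher, where 1.03% of all genes were lower. They were Pilrb1 (-0.77, adjusted p = 0.0389), Pilrb2 (-0.76, adjusted p = 0.0196) and Trem3 (-0.72, adjusted p = 0.0185), each a receptor that pairs with Tyrobp. Of 22 alternative settings, which include each array left out, Pilrb1 was called in 6, Pilrb2 in 15 and Trem3 in 14. Without HOXA9+MDHD week 4 replicate 2 the count of the 23 called lower was 7. It was 0 or 1 without any 1 HOXA9+MIY array, and 0 without replicate 1 of HOXA9+MDHD in either week. Between the forms of Meis1, 5 were lower with full-length Meis1 and 0 higher, where 2.11% of all genes were lower. They were led by Clec4n (-2.43, adjusted p = 0.00216), Clec5a (-1.28, adjusted p = 0.00136), Clec7a (-1.15, adjusted p = 0.00709) and Trem2 (-1.05, adjusted p = 0.011). Clec5a had a mean of 10.99 in both HOXA9+MIY and HOXA9+MDHD and 9.71 in HOXA9+MEIS1, whereas Trem3 had 12.02 with the empty vector and 11.30 and 11.16 with the deleted and full-length forms. The forms of Meis1 differed in Clec5a, as above, and in Trem3 the difference between them was -0.13 (adjusted p = 0.74).

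Among the 6 other Src-family and Syk-family kinases measured (of 8 listed), Fyn was the 1 call. Over all genes 5.25% were called higher with Meis1 and 0.942% with the deleted form. Fyn rose with Meis1 by 1.13 ± 0.15 (adjusted p = 0.000411) and with the deleted form by 1.17 ± 0.15 (adjusted p = 0.00446), from a mean of 7.97 to 9.11 and 9.14. The forms of Meis1 differed by -0.04 (adjusted p = 0.956). Fgr and Fyn, both Src-family kinases, moved in opposite directions with full-length Meis1. Between the forms limma called 0 of the 6, with 0 at an unadjusted p under 0.05, and the largest differences were -0.10 for Src (adjusted p = 0.406) and 0.08 for Yes1 (adjusted p = 0.648).

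Downstream of Syk, 5 of 26 genes were higher and 5 lower with Meis1 against the empty vector, with a median of -0.07, where 5.25% of all genes were higher and 5.52% lower. Plcg1, one of a pair of phospholipases that make the second messengers of this pathway, fell by 0.71 ± 0.06 (adjusted p = 2e-05), and the adaptor Sh3bp2 fell by 0.48 ± 0.11 (adjusted p = 0.0137). The membrane adaptor Lat2 (NTAL) was higher by 0.59 ± 0.07 (adjusted p = 0.000186) and the adaptor Gab2 by 0.35 ± 0.08 (adjusted p = 0.0141). With the deleted form Plcg1 was lower (-0.40, adjusted p = 0.00872) and Lat2 higher (0.36, adjusted p = 0.0263). Those were the 2 calls of 26, where 1.03% of all genes were lower and 0.942% higher. The Lat2 call was lost without HOXA9+MIY week 3 replicate 1 or 2, HOXA9+MIY week 4 replicate 1, HOXA9+MDHD week 3 replicate 2 or HOXA9+MDHD week 4 replicate 1. Between the forms Plcg1 (-0.31, adjusted p = 0.0136) and the kinase Prkcd (-0.24, adjusted p = 0.0121) were lower with full-length Meis1. They were again the only calls of the 26, where 2.11% of all genes were lower and 2.28% higher. For Plcg1 the means were 8.67, 8.27 and 7.96 with the empty vector, the deleted form and Meis1, and each step was called. The 5 higher genes became 2 or 3 without any of HOXA9+MIY week 3 replicates 1 and 2, HOXA9+MIY week 4 replicate 2, HOXA9+MEIS1 week 3 replicate 1 or HOXA9+MEIS1 week 4 replicate 2.

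Among 31 inhibitory receptors and negative regulators, 13 were lower and 4 higher with Meis1 against the empty vector, where 5.52% of all genes were lower and 5.25% higher. The median was -0.17, against -0.005 over all genes. Pilra, the inhibitory partner of the Pilrb receptors, fell by 2.24 ± 0.19 (adjusted p = 1.65e-05), and Clec4a2, a lectin receptor with an inhibitory motif, fell by 2.24 ± 0.22 (adjusted p = 3.92e-05), from a mean of 8.21 to 5.97, which is below the filter level. Cd300lf fell by 1.30 ± 0.13 (adjusted p = 5.76e-05), and the receptor phosphatase Ptprj, which acts on Src-family kinases, fell by 0.70 ± 0.06 (adjusted p = 2.79e-05). With the deleted form, where 1.03% of all genes were lower and 0.942% higher, 2 were lower. Those were Clec4a2 (-1.01, adjusted p = 0.0381) and Pilra (-0.88, adjusted p = 0.0395). Another 2 were higher, the adaptor Sla2 (0.36, adjusted p = 0.0386) and Cd33, a sialic acid receptor (0.27, adjusted p = 0.0328). Without HOXA9+MDHD week 4 replicate 2 these counts were 5 lower and 3 higher, and without any 1 HOXA9+MIY array they were 0 lower and 0 or 1 higher.

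Between the forms 8 of the 31 were lower with full-length Meis1 and 2 higher, where 2.11% of all genes were lower and 2.28% higher. At the head were Pilra (-1.36, adjusted p = 0.0015), Clec4a2 (-1.23, adjusted p = 0.00631), Cd300lf (-0.83, adjusted p = 0.0035) and Ptprj (-0.60, adjusted p = 0.000237).

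**Figure D4:**
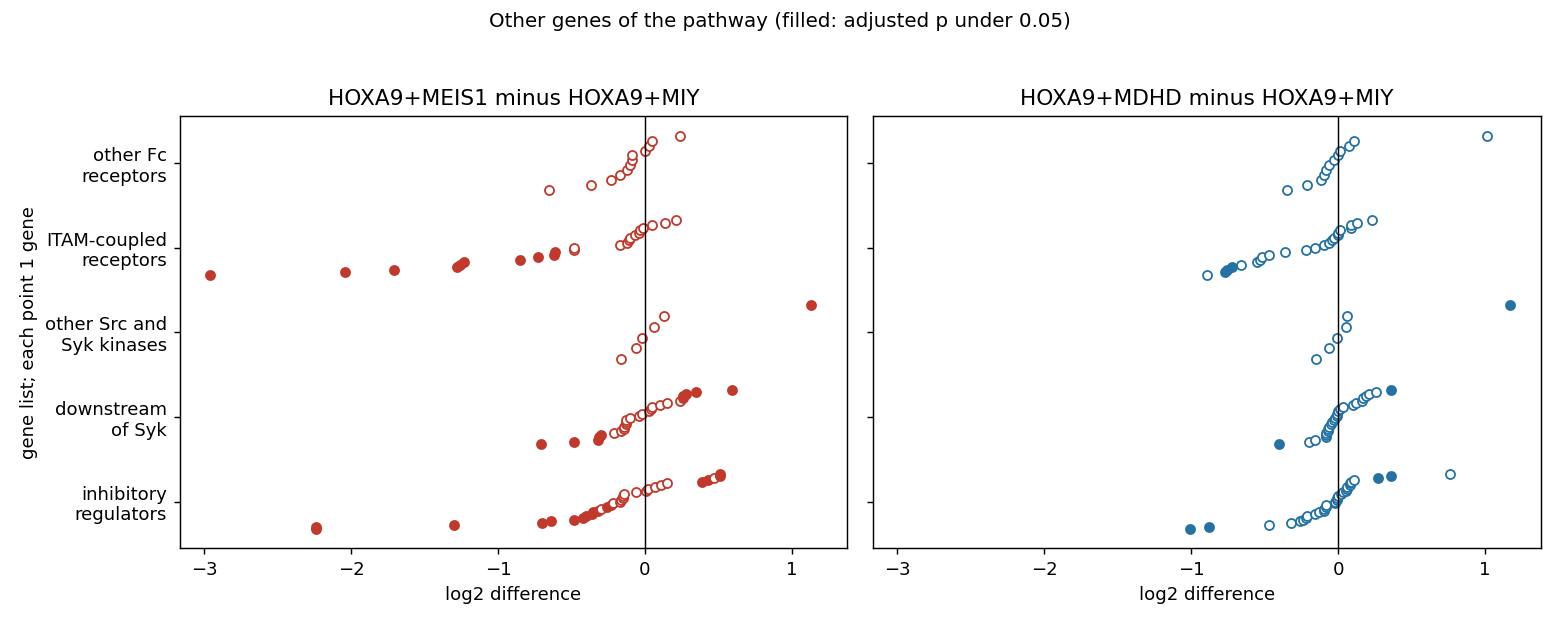
Log2 difference (x axis) of each measured gene of the 5 pathway lists, for HOXA9+MEIS1 minus HOXA9+MIY (left) and HOXA9+MDHD minus HOXA9+MIY (right); filled points have an adjusted p under 0.05. The ITAM-coupled receptors have 10 filled points on the left, all below 0, and 3 on the right, while the single filled kinase, Fyn, lies above 0 in both panels at 1.13 and 1.17.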

How the data were processed

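RNA of 12 samples was labelled with biotin and measured on Affymetrix mouse exon arrays, 1 array per sample. Per the submitters' processing notes, the authors ran Affymetrix Expression Console with RMA (no version stated). The deposited table holds log2 values, 1 per probe set and array. Array medians were 6.258 to 6.301 and correlations between arrays 0.9624 to 0.9823. Precision is limited by there being 4 arrays a group. Of 1256831 probe sets, 318760 named 1 gene. Those with a mean log2 above 6.2592, the 50th percentile, were kept (233798), and were summarised per gene by median polish (at most 50 iterations). RMA and median polish both shrink differences that only some probes show.

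A linear model with condition and week was fitted over 20711 genes and 12 arrays in R 4.3.3 by limma 3.58.1, with two-sided moderated tests (lmFit, trended eBayes, 8 residual and 3.96 prior degrees of freedom). Other models added interaction terms or ran over single probe sets. P-values were adjusted by Benjamini-Hochberg over all features. Errors after ± are standard errors unless given as SD. The main fit was tested on simulated gene values with independent noise and known differences between HOXA9+MEIS1 and HOXA9+MIY. The other steps were not tested in this way. P-values measure the spread between these arrays.

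The members and lists were chosen with earlier results of these data known. All members were named, and from each list, per pair of conditions, up to 4 called genes with the largest change, or the 2 largest where none was called. The 3 genes with the highest Pearson r were named for each member, with those of Syk and Fcer1g left out of the text. The numbers 1 and 2 in the labels were checked for pairing on the residuals, only between arrays of different conditions in the same week. Those of the same number correlated at -0.316 to -0.015 and those of different number at -0.271 to 0.048. The numbers were therefore not used as a block in the main model. Whether arrays of the same condition and number in different weeks share a culture was not checked. The p-values treat all arrays of a group as independent. Alternatives covered the filter, the summary, the normalization, the model and each array left out. Promoters came from RefSeq (GRCm38.p6) for 7 of the 9 genes. Tables and plots were made with Python 3.11.15, pandas 2.3.3 and matplotlib 3.10.9.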

Additional observations from a re-analysis of the deposited data

How the results depend on the processing

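Fcgr1, Fcgr4 and Tyrobp were called lower in HOXA9+MEIS1 than in HOXA9+MIY under all 22 alternatives tried, Fgr under 21 and Fcgr2b under 14. Fcgr2b was not called with no week term (adjusted p = 0.0694), in week 4 alone (-0.537, adjusted p = 0.088) or without any 1 of the 4 HOXA9+MIY arrays or HOXA9+MEIS1 week 4 replicate 1. The count of members called in that comparison was 3 in week 3 alone, where Fgr was -0.956 (adjusted p = 0.0513) and Fcgr2b -0.265 (adjusted p = 0.181), and 4 to 5 elsewhere, with 4 to 5 when 1 array was left out. For HOXA9+MDHD minus HOXA9+MIY the count fell from 1 to 0 with the stricter filter, median centring, no week term, only both conditions' arrays, week 3 or week 4 alone, and the replicate block, and was 0 to 4 with 1 array left out. For HOXA9+MEIS1 minus HOXA9+MDHD the count fell from 2 to 0 with no week term, only both conditions' arrays or week 3 alone, to 1 in week 4 alone, and was 0 to 2 with 1 array left out. The week count rose from 2 to 4 with quantile normalization and was 2 to 3 with 1 array left out. With no week term the probe sets called lower fell from 8 to 0 for HOXA9+MDHD minus HOXA9+MIY and from 17 to 5 for HOXA9+MEIS1 minus HOXA9+MDHD. With the replicate block, Fcgr1 in HOXA9+MDHD minus HOXA9+MIY was -0.459 with an adjusted p of 0.0696, the counts in HOXA9+MEIS1 were 5 against the empty vector and 2 against the deleted form, and no other call of a member changed. Where a call was lost with fewer arrays, the smaller number of samples is part of the setting; otherwise the cause was not tested.

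Signs turned only for differences that were not called. Fcer1g was -0.021 in week 3 for HOXA9+MEIS1 minus HOXA9+MIY, and 0.007 with quantile normalization for HOXA9+MDHD minus HOXA9+MIY, where Fcgr3 was 0.023 in week 4. For HOXA9+MEIS1 minus HOXA9+MDHD in week 3, Fcgr2b was 0.19 and Syk 0.008, and with 1 array left out they ran from -0.084 to 0.099 and from -0.062 to 0.057. Between the weeks Fcgr2b was 0.067 with quantile normalization (-0.126 to 0.006 with 1 array left out), and Fcgr4 was -0.013 with no filter and -0.005 with the mean of the probe sets (-0.152 to 0.131 with 1 array left out).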
